A study of Mus musculus with 9 samples.

Results

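The 40 genes described here, of glycolysis and of the response to low oxygen, were followed across 9 mouse pancreas tumours. They were taken by gene symbol from the array annotation, and 37 of the 40 are among the 19057 genes for which the arrays carry a probe with a single symbol. By role they are 16 glycolytic enzymes, 3 regulators of glycolytic flux, 4 glucose and lactate transporters, 2 carbonic anhydrases, 3 subunits of the hypoxia-inducible factor (HIF), 2 HIF prolyl hydroxylases and 10 other hypoxia targets. Total RNA of each tumour was measured on its own 1-colour Illumina array. The 3 groups held 3 tumours each, and each tumour has a mouse number of its own. The KPC group carries the KPC genotype, which in this field means a mouse model bred to develop pancreatic cancer through alleles switched on by a Cre recombinase in the pancreas. The Twist cKO group is KPC with Twist removed in the pancreas, and the Snail cKO group is KPC with Snail removed there, so both deletions share the KPC alleles with the controls. All tumours arose spontaneously. The labels spell out neither the alleles, nor the Cre driver, nor the ages. For each group the design text speaks of 2 mice and the labels of 3, and all 9 tumours were used as labelled. Twist and Snail are transcription factors that repress epithelial genes, and the groups allow the question whether tumours without either factor differ in these metabolic genes.

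Glycolysis turns glucose into pyruvate, and lactate dehydrogenase then turns pyruvate into lactate. HIF joins an oxygen-sensitive alpha subunit, encoded by Hif1a or Epas1, to the stable subunit encoded by Arnt. With oxygen present, prolyl hydroxylases such as those of Egln1 and Egln3 mark the alpha subunit for destruction, so HIF is controlled largely at the protein level, which arrays do not see. In low oxygen the complex binds short DNA elements and raises transcription of glucose transporters, nearly all glycolytic enzymes, the pH regulator Car9 and the vessel growth factor Vegfa. Pancreatic ductal tumours are known for dense stroma, few open vessels and low oxygen.

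The core of the HIF binding element reads ACGTG or GCGTG, and promoter windows of 250 bases before to 50 after the RefSeq start (GRCm38.p6) were searched for both, on both strands. Windows were found for 36 of the 40 genes, 50 in all, and Bnip3l, Epas1, Ndrg1 and Slc2a3 were not matched. ACGTG lay in 28 of these 50 windows (56.0%), against 19.6% of all 32851 windows in the table and 24.7% of the 11853 windows of genes tested on the arrays. GCGTG lay in 58.0% of the members' windows, 32.4% of all windows and 48.0% of those of tested genes. One or both lay in 80.0%, 43.8% and 59.6%. Base composition differed as well, since a window held a median of 20 CpG among the members, 7 among all windows and 19 among tested genes. Within the members, ACGTG lay in 12 of 27 windows of glycolytic enzymes (44.4%) and in 16 of 23 windows of the other members (69.6%). Several genes have more than 1 window, some of them overlapping, and counted by gene ACGTG lay in a window of 10 of the 16 enzymes and 15 of the 20 other members. Counted the same way, it lay in a window of 2662 of 9277 tested genes and of 5886 of all 27025 genes with a window.

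The promoters of 5 genes are shown because the array values below turn on these genes, and for each gene the window with the most matches was taken. They are Ldha at chr7:46845554-46845853 (plus strand), Pkm at chr9:59656977-59657276 (plus), Pdk1 at chr2:71872974-71873273 (plus), Egln3 at chr12:54203825-54204124 (minus) and Car9 at chr4:43506776-43507075 (plus). Each is written 5′ to 3′ along its gene. Capitals mark every match, read on the printed strand as ACGTG or GCGTG and on the other strand as CACGT or CACGC, and CACGTG is a match on both strands that overlap.
Ldha: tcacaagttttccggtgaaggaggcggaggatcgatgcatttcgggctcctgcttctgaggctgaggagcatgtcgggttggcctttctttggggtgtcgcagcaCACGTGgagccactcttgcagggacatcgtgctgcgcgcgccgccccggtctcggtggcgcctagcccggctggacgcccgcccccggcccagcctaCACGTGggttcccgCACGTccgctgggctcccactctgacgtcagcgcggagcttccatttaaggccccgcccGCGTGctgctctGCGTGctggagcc
Pkm: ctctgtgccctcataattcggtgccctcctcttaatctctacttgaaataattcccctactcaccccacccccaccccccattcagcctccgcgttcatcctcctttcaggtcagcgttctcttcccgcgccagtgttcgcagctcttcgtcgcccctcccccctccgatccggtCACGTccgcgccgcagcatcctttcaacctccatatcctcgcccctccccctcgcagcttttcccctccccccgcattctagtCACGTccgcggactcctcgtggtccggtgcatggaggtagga
Pdk1: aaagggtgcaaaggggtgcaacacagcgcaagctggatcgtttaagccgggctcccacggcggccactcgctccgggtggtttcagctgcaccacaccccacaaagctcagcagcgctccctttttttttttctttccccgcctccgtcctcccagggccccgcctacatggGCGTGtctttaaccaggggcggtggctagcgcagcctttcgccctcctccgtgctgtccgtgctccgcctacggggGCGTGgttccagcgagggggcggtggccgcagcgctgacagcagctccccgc
Egln3: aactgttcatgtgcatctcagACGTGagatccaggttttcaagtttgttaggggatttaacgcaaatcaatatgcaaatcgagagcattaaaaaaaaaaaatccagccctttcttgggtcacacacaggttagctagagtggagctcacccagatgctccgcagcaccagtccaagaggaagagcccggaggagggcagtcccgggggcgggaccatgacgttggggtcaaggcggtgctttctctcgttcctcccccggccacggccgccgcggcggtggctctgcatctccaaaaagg
Car9: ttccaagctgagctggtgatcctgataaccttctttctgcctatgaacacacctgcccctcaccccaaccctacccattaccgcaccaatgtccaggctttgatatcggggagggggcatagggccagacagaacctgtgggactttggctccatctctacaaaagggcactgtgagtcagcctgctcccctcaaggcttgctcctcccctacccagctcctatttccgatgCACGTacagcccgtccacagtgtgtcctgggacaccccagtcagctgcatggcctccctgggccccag
The Ldha window held 7 matches, 5 of ACGTG and 2 of GCGTG. The Pkm window held 2 of ACGTG, the Pdk1 window 2 of GCGTG, and the Egln3 and Car9 windows 1 of ACGTG each. The Car9 match lies 18 bases before the start and the Egln3 match 229 bases before it. A match is a run of letters, not a measured binding site.

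Of the 40 genes, 33 passed the detection filter and were tested, meaning that at least 3 of the 9 arrays read the probe above their negative controls at a detection p-value below 0.05. Hk2, Gpi1 and Eno1 have no probe with that single symbol. The probe named Eno1b, a near-identical copy of Eno1, was not counted as Eno1. The lactate transporter Slc16a1, the HIF subunit Epas1 and the mitophagy receptor Bnip3 were detected on 0 arrays by their brightest probe, and the mitochondrial gene Higd1a on 1. Probes of different genes do not share a scale, so levels are compared below only between tumours. All values are normalised log2 intensities, where a difference of 1 is a 2-fold difference.

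The tumours differed in their signals of cell type markers. Between 36.9% and 43.3% of probes were detected per array. Median raw signals fell into 2 sets of arrays with no label of their own, 99.1 to 107.2 for the 3 KPC tumours, Twist cKO 3 and Snail cKO 3, and 115.4 to 125.4 for the other 4. Twist cKO 2 stands against its tissue label. Of 9 epithelial and duct markers tested, 5 were not detected in it (Krt19, Krt18, Krt7, Cldn4 and Cldn7), and its T cell, B cell and adipocyte markers lay a median of 5.67, 5.28 and 4.65 above the mean of the 9 tumours (2 of 6, 2 of 7 and 4 of 6 markers tested). In KPC 1 the epithelial median was -2.72, with 8 of 9 detected (not Tjp3), and the macrophage median 1.87. In the other 7 tumours the epithelial median lay between -0.07 and 1.62. Twist1 was detected in 3 of 3 KPC tumours, 2 of 3 Snail cKO tumours and 1 of 3 Twist cKO tumours, whereas Snai1 was detected in all 9, at 7.79, 6.08 and 7.30 in the Snail cKO tumours. The labelled Snail deletion is therefore not visible in this probe, and whether the probe lies within the deleted part is not stated here.

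A pair of tumours marked the ends of the range. Snail cKO 1 was the highest of 9 for 15 of the 33 genes and the lowest for 0, while it was the highest for 9.47% of all 11537 genes tested. Twist cKO 2 was the lowest for 13 of the 33, against 21.3% of all genes. The heat map of all 33 genes shows both columns. Among the 13 glycolytic enzymes, Snail cKO 1 was highest for 7 and Twist cKO 2 lowest for 7, and 0 of the 13 lay above their 9-tumour mean in Twist cKO 2, against 12 in Snail cKO 1 and 10 each in Snail cKO 2 and 3. Snail cKO 1 also had the highest value of all 4 erythroid markers tested, with a list median 2.60 above the mean. The part of this blood signal, and of the marker signals of Twist cKO 2, in the values below was not tested. Each tumour piece was measured in bulk, so fewer cells of a type and less RNA per cell cannot be told apart.

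**Figure D1:**
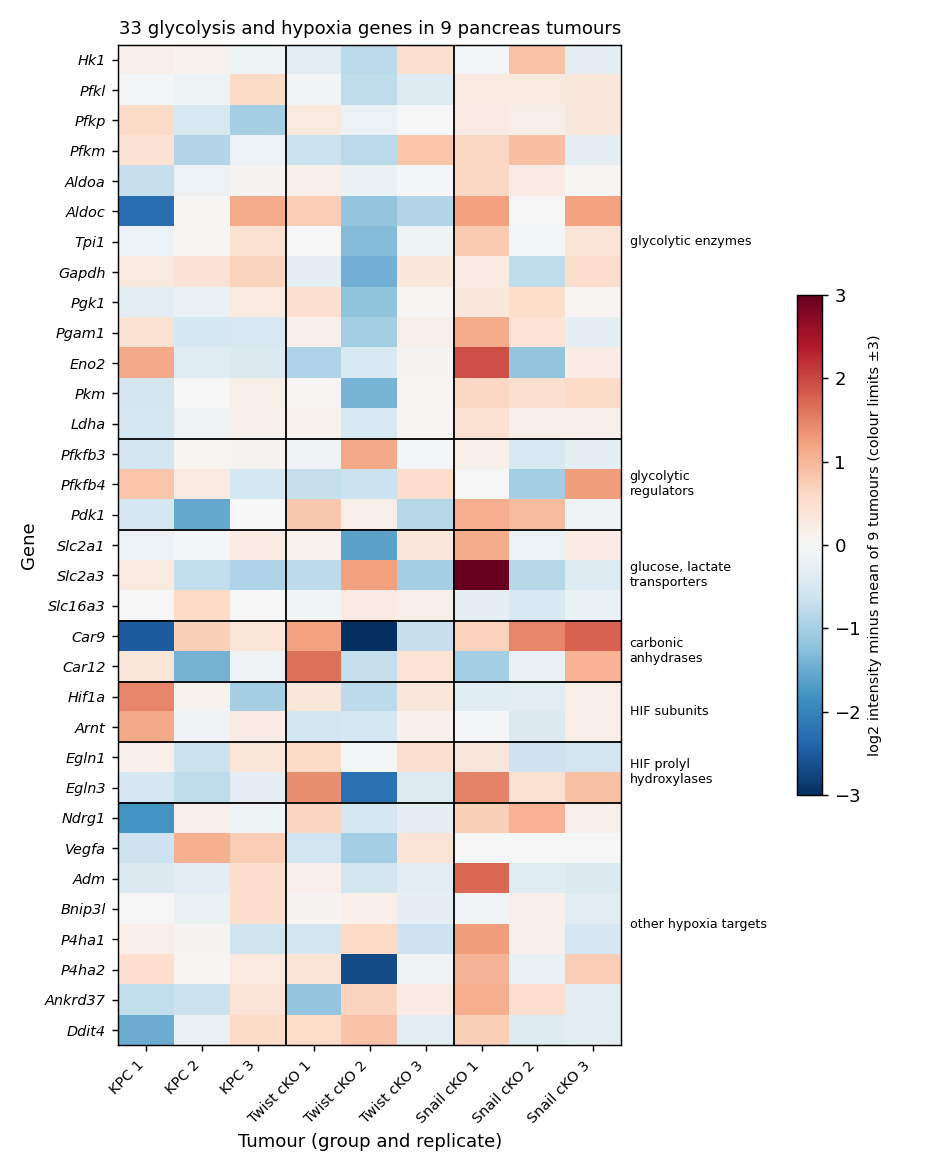
Heat map of 33 glycolysis and hypoxia genes (rows, grouped by role) in 9 tumours (columns), coloured by log2 intensity minus the gene's mean over the 9 tumours. Snail cKO 1 is the highest tumour for 15 of the 33 genes and Twist cKO 2 the lowest for 13.

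As a list, the 13 glycolytic enzymes lay a median of 0.62, 0.24 and 0.22 above their 9-tumour mean in Snail cKO 1, 2 and 3. In the KPC tumours the same median was -0.07, -0.16 and 0.13, and in the Twist cKO tumours 0.04, -0.81 and 0.04. All 3 Snail cKO tumours thus had higher enzyme medians than the other 6 tumours. For the 20 other members the order broke up, with 0.71, -0.21 and -0.06 in Snail cKO, -0.10, -0.07 and 0.14 in KPC and 0.12, -0.53 and -0.08 in Twist cKO. Only Snail cKO 1 stood high there, among these 9. The plot of list medians by tumour sets both beside the epithelial markers, which were lowest in Twist cKO 2 (-5.51) and KPC 1 (-2.72).

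**Figure D2:**
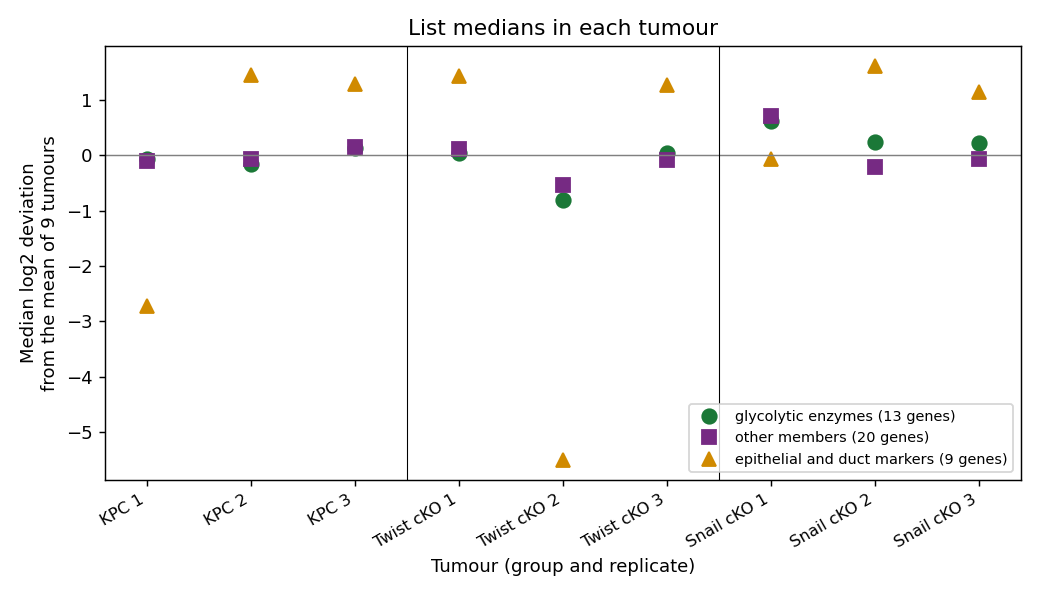
Median log2 deviation from the mean of 9 tumours for 13 glycolytic enzymes, 20 other members and 9 epithelial and duct markers in each tumour. The enzyme medians of the 3 Snail cKO tumours (0.62, 0.24 and 0.22) lie above those of the other 6, and Twist cKO 2 has the lowest enzyme median (-0.81) and the lowest epithelial median (-5.51).

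Pkm encodes pyruvate kinase, which makes pyruvate in the last step of glycolysis. Its log2 intensity was 11.99, 12.54 and 12.71 in KPC 1, 2 and 3, then 12.58, 11.15 and 12.57 in the Twist cKO tumours and 13.17, 13.03 and 13.12 in the Snail cKO tumours. All 3 Snail cKO tumours lay above the other 6. Pkm was 0.69 higher in Snail cKO than in KPC (SE 0.41, 1.62-fold) and 1.01 higher than in Twist cKO (SE 0.41, 2.01-fold), and limma gave unadjusted p-values of 0.130 and 0.0390 with adjusted p-values of 1.00 and 0.985. The exact permutation p was 0.1 for each, the smallest that 3 against 3 tumours can give. Without Twist cKO 2 the second difference was 0.53. A second Pkm probe, detected on 6 arrays, gave 0.40 and 0.38.

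Ldha encodes the lactate dehydrogenase subunit favoured in glycolytic tissue. Its values were 12.62, 13.05 and 13.28 in KPC, 13.26, 12.67 and 13.19 in Twist cKO and 13.61, 13.36 and 13.30 in Snail cKO. The Snail cKO tumours again lay above all other 6, with Snail cKO 3 barely above KPC 3. The mean difference was 0.44 against KPC (SE 0.28) and 0.38 against Twist cKO (SE 0.28), and neither passed limma's adjusted threshold (adjusted p 1.00 and 0.985). The first was 0.26 without KPC 1, and the second was 0.20 without Twist cKO 2 and 0.11 within array set 1. The range of Ldha over all 9 tumours, 0.99, was among the narrowest of the 33.

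Pfkl encodes the liver-type subunit of phosphofructokinase, the committed step of glycolysis. It read 10.69, 10.60 and 11.33 in KPC, 10.67, 9.9999 and 10.38 in Twist cKO and 11.02, 11.04 and 11.10 in Snail cKO. Snail cKO lay wholly above Twist cKO and within the KPC range. The difference from Twist cKO was 0.70 (SE 0.29) with an unadjusted limma p of 0.0404 and an adjusted p of 0.985. A second Pfkl probe, detected on 5 arrays, pointed the other way at -0.31, and the mean of the probes gave 0.19.

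Pgk1 encodes phosphoglycerate kinase, an ATP-making enzyme. It read 11.52, 11.65 and 12.13 in KPC, 12.34, 10.65 and 11.92 in Twist cKO and 12.17, 12.41 and 11.92 in Snail cKO, and all 3 groups overlapped. Its difference between Snail cKO and Twist cKO, 0.53 (SE 0.43), was 0.04 without Twist cKO 2. Gapdh, the glyceraldehyde 3-phosphate dehydrogenase often used as a loading control, had the single lower Snail cKO mean among the 13 enzymes. It read 12.78, 12.94 and 13.18 in KPC, 12.22, 11.08 and 12.83 in Twist cKO and 12.76, 11.76 and 13.04 in Snail cKO. Gapdh was 0.93 lower in Twist cKO than in KPC on the log2 scale, a difference of -0.93 (SE 0.49), and -0.45 (SE 0.49) separated Snail cKO from KPC. Without Twist cKO 2 the first was -0.44, and without Snail cKO 2 the second was -0.07. Blocking on array set turned the Snail cKO difference to 0.20, and within set 1 it was 0.070.

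The aldolases and triose phosphate isomerase, which split and interconvert the sugar phosphates, followed the list. Aldoa was 0.57 higher in Snail cKO than in KPC (SE 0.29), 0.36 without KPC 1 and 0.31 within array set 1. Aldoc spread from 5.21 in KPC 1 to 8.72 in Snail cKO 1, and its difference of 1.19 (SE 0.87) was 0.24 without KPC 1. Tpi1 was 0.85 higher in Snail cKO than in Twist cKO (SE 0.40), and 0.45 without Twist cKO 2, while another Tpi1 probe gave -0.0089. Group means of the other enzymes ranged as follows. Hk1 had means of 6.13, 5.87 and 6.27 in KPC, Twist cKO and Snail cKO, Pfkp 8.27, 8.62 and 8.83, and Pfkm 9.32, 9.32 and 9.94. Pgam1, the phosphoglycerate mutase, had 9.17, 9.12 and 9.78, and the neuronal enolase gene Eno2 had 8.10, 7.56 and 8.32. In each of these 5 the Snail cKO mean was the highest of the 3 groups, with SDs of 0.08 to 1.56 over its 3 tumours.

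**Figure D3:**
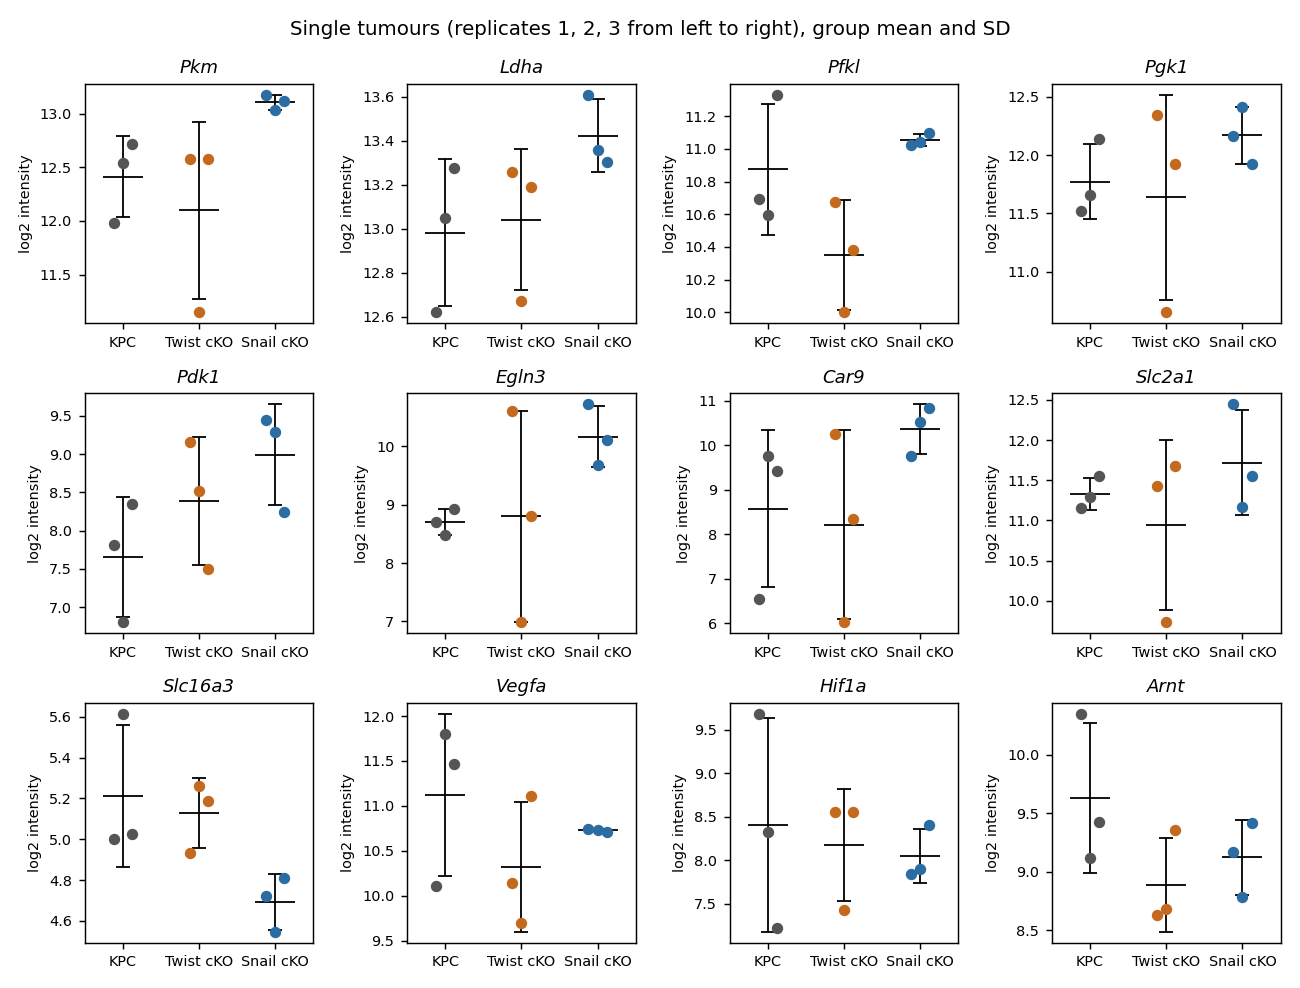
Normalised log2 intensity of 12 members in single tumours (points, replicates 1 to 3 from left to right) with the group mean and SD (3 tumours each). Pkm and Ldha are higher in all 3 Snail cKO tumours than in the other 6, while Car9, Slc2a1 and Hif1a overlap between groups.

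Among the regulators, Pdk1 stood out. Pdk1 encodes pyruvate dehydrogenase kinase, which keeps pyruvate out of the mitochondrial citric acid cycle. It read 7.81, 6.80 and 8.35 in KPC, 9.15, 8.52 and 7.50 in Twist cKO and 9.45, 9.29 and 8.24 in Snail cKO. Of the Snail cKO tumours, 2 of 3 lay above all KPC tumours, and Snail cKO 3 overlapped with them. The difference from KPC was 1.34 (SE 0.56, 2.53-fold, 95% interval 0.06 to 2.61), with an unadjusted limma p of 0.0418 and an adjusted p of 1.00. It shrank to 0.51 when array set was a block, and to 0.58 within array set 1, where 1 Snail cKO tumour faces the 3 KPC tumours. Both higher Snail cKO tumours and both higher Twist cKO tumours are in array set 2. A second Pdk1 probe, detected on 5 arrays, gave 0.82. The bifunctional enzymes Pfkfb3 and Pfkfb4, which set the level of the phosphofructokinase activator, had Snail cKO means of 5.06 and 9.16 against 5.11 and 9.27 in KPC and 5.57 and 8.81 in Twist cKO, all overlapping.

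Slc2a1 encodes GLUT1, the main basal glucose transporter. It read 11.15, 11.29 and 11.55 in KPC, 11.43, 9.73 and 11.68 in Twist cKO and 12.44, 11.17 and 11.55 in Snail cKO. High in Snail cKO 1 and low in Twist cKO 2, it overlapped between all groups. The difference of 0.39 from KPC (SE 0.54) was 0.03 without Snail cKO 1. Slc2a3, the high-affinity transporter GLUT3 found in neurons and blood cells, read 11.52 in Snail cKO 1 and 9.55 in Twist cKO 2 and lay between 7.33 and 8.61 in the other 7 tumours. Slc16a3 encodes MCT4, which carries lactate out of glycolytic cells, and it did not share the direction of the enzymes. Its values were 5.00, 5.61 and 5.02 in KPC, 4.93, 5.26 and 5.19 in Twist cKO and 4.72, 4.55 and 4.81 in Snail cKO, with the lowest measured mean in Snail cKO. The probe was dim, detected in 3 KPC, 2 Twist cKO and 0 Snail cKO tumours, so the Snail cKO values are not well above background and have no order against the others. The lowest detected signal of Snail cKO 2 alone was 5.34, above all Twist cKO values and above KPC 1 and KPC 3. The measured means were 5.21, 5.13 and 4.69 in KPC, Twist cKO and Snail cKO (limma adjusted p 1.00 against KPC and 0.985 against Twist cKO). With each Snail cKO value raised to the lowest detected signal of its array, the KPC mean was 1.09-fold brighter and the Twist cKO mean 1.03-fold. These are ratios of group means and order no single tumours, and the Twist cKO mean includes a tumour without detection.

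Car9 encodes carbonic anhydrase IX, a surface enzyme that regulates pH and is a standard marker of low oxygen. It had the widest range of the 33 genes, 4.80. It read 6.55, 9.76 and 9.41 in KPC, 10.26, 6.03 and 8.35 in Twist cKO and 9.75, 10.51 and 10.83 in Snail cKO. The low tumours were KPC 1 and Twist cKO 2, the same 2 that were lowest for epithelial markers, and Snail cKO 1 lay just under KPC 2. The Snail cKO mean was 1.79 above KPC (SE 1.13, 95% interval -0.78 to 4.36) and 2.15 above Twist cKO (SE 1.13, interval -0.42 to 4.72), with limma adjusted p-values of 1.00 and 0.985. Without KPC 1 the first was 0.78, and without Twist cKO 2 the second was 1.06. Another 2 Car9 probes gave 1.84 and 1.59 for the first. Car12, a related surface anhydrase, had means of 6.62, 7.46 and 6.94 in KPC, Twist cKO and Snail cKO with overlapping tumours.

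Against KPC, the Snail cKO mean was lower for both tested HIF subunit genes, while against Twist cKO it was higher for Arnt (9.12 and 8.89). Hif1a read 9.68, 8.32 and 7.22 in KPC, 8.55, 7.43 and 8.55 in Twist cKO and 7.84, 7.90 and 8.40 in Snail cKO, with the KPC tumours spanning both other groups. Its Snail cKO difference from KPC was -0.36 (SE 0.60), which turned to 0.28 without KPC 1. Arnt read 10.35, 9.12 and 9.43 in KPC, 8.63, 8.68 and 9.35 in Twist cKO and 9.17, 8.78 and 9.42 in Snail cKO. KPC 1 was the highest tumour for both genes. Arnt differed from KPC by -0.74 in Twist cKO (SE 0.38) and by -0.51 in Snail cKO (SE 0.38), and by -0.38 and -0.15 without KPC 1. Epas1 was not well above background in any tumour, at 4.95, 4.71 and 4.79 in KPC, 4.67, 4.70 and 4.73 in Twist cKO and 4.70, 4.75 and 4.69 in Snail cKO, and gets no comparison. Of 4 further Arnt probes, 1 gave the opposite sign in both comparisons (0.11 and 0.26).

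Egln3 encodes a prolyl hydroxylase that is itself switched on by HIF. It read 8.71, 8.47 and 8.92 in KPC, 10.61, 6.99 and 8.81 in Twist cKO and 10.72, 9.68 and 10.10 in Snail cKO. All 3 Snail cKO tumours lay above all 3 KPC tumours, and the Twist cKO tumours ran from the lowest value of the 9 to the second highest. The difference from KPC was 1.47 (SE 0.78, 2.76-fold, 95% interval -0.30 to 3.24), with a limma adjusted p of 1.00 and an exact permutation p of 0.1. It was 1.44 when array set was a block, 1.40 within set 1 and 1.19 without Snail cKO 1, and a second probe gave 1.08. Egln1, the main oxygen sensor of this family, had means of 5.91 in KPC, 6.28 in Twist cKO and 5.65 in Snail cKO, with overlapping tumours.

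Vegfa read 10.11, 11.80 and 11.46 in KPC, 10.15, 9.70 and 11.11 in Twist cKO and 10.74, 10.73 and 10.72 in Snail cKO. Its Snail cKO tumours were almost identical and lay inside the KPC range, at a difference of -0.39 (SE 0.50), and the Twist cKO difference from KPC was -0.80 (SE 0.50). The first was -0.90 without KPC 1 and -0.06 without KPC 2, and the second -1.31 without KPC 1 and -0.49 without Twist cKO 2. Ndrg1, a stress-response gene, read 8.25, 10.19 and 9.92 in KPC, 10.68, 9.51 and 9.78 in Twist cKO and 10.76, 11.07 and 10.19 in Snail cKO. Snail cKO 3 and KPC 2 met at 10.19. The difference of 1.22 (SE 0.55) was 0.62 without KPC 1 and 0.73 within array set 1. P4ha2, a collagen prolyl hydroxylase subunit, read 6.97 in Twist cKO 2 and between 9.45 and 10.67 in the other 8 tumours, so its Twist cKO difference of -1.09 (SE 0.73) was -0.14 without that tumour. P4ha1, a related gene, had means of 6.96, 6.88 and 7.36 in KPC, Twist cKO and Snail cKO. Adm, the vasodilator adrenomedullin, read 7.37 in Snail cKO 1 and between 5.11 and 6.18 elsewhere. The mitophagy gene Bnip3l was the steadiest of the 33, with a range of 0.87, and Ankrd37 and the stress gene Ddit4 overlapped between all groups.

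Between Snail cKO and KPC tumours, the glycolytic enzymes had higher means in Snail cKO almost throughout, without any single gene passing the test. The mean was higher for 12 of the 13 enzymes, with a median log2 difference of 0.44, and for 12 of the 20 other members, with a median of 0.35. Over all 33 that made 24 higher (72.7%), where 46.1% of all genes tested were higher and the median of all genes was -0.03. With the arrays brought to a common median instead of quantile-normalised, 56.3% of all genes and 25 of the 33 were higher. Without KPC 1 the enzyme median was 0.27, with 12 of 13 higher. Leaving out Snail cKO 1 gave 11 of 13 enzymes and a median of 0.35 for them, but -0.07 for the other members and 0.05 for all 33. Within array set 1 the enzymes counted 10 of 13 with a median of 0.22. By limma, 0 of 33 members passed an adjusted p of 0.05 (0% of all genes), and 1 of 33 (Pdk1) had an unadjusted p under 0.05, against 2.7% of all genes. In 3 of 33 (Pkm, Ldha and Egln3) all Snail cKO tumours lay above all KPC tumours, against 2.85% of all genes. Slc16a3 read below in all 3, as 5.81% of all genes did, but at background, and 8.66% of all genes had no overlap in either direction. By group mean, epithelial and duct markers stood the same way as the enzymes, with 7 of 9 higher in Snail cKO at a median of 1.05. Their means were 7.63, 11.09 and 11.32 in KPC 1, 2 and 3, and 9.996, 10.88 and 11.12 in Snail cKO 1, 2 and 3. Only KPC 1 therefore lay below all 3 Snail cKO tumours, and the marker difference without KPC 1 was not tested. Acinar markers were higher in 10 of 10 (median 1.54), erythroid in 4 of 4 (1.57), T cell and B cell in 2 of 2 each (1.11 and 0.82), smooth muscle in 3 of 4 (0.93) and adipocyte in 3 of 4 (0.56). Macrophage and fibroblast markers were lower in 8 of 8 (-0.96) and 11 of 11 (-0.64). The medians of endothelial, islet, neutrophil, skeletal muscle and proliferation markers lay between -0.29 and 0.18. Of the 10 acinar markers, 2, 10 and 2 were detected in the KPC tumours and 9, 2 and 10 in the Snail cKO tumours. Their part in the result was not tested.

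Between Snail cKO and Twist cKO tumours the enzymes stood 13 of 13 higher in Snail cKO, with a median of 0.62, and 26 of 33 members were higher, against 52.2% of all genes and a median of 0.02. This comparison leans on Twist cKO 2. Without it, 12 of 13 enzymes were still higher, at a median of 0.26. Within array set 1, where 1 tumour faces 1, the enzymes counted 10 of 13 at 0.14. Within set 2, where 2 face 2, they counted 13 of 13 at 0.85. Twist cKO 2 is 1 of the 2 Twist cKO tumours there, and this setting was added after seeing the data. By limma 0 of 33 passed (0% of all genes), 2 of 33 (Pfkl and Pkm) had an unadjusted p under 0.05, against 3.8% of all genes, and in 3 of 33 (Pfkl, Pkm and Ldha) all Snail cKO tumours lay above all Twist cKO tumours, against 4.25% of all genes. Slc16a3 again read below at background, as 3.95% of all genes read below, and 8.2% of all genes had no overlap in either direction. Epithelial and duct markers were higher in 8 of 9, at a median of 1.68, and proliferation markers in 8 of 8, at a median of 0.34. Erythroid markers were higher in 4 of 4 (0.62) and smooth muscle markers in 4 of 4 (0.13). Macrophage and endothelial markers were lower in 7 of 8 each (-0.59 and -0.40), neutrophil in 5 of 7 (-0.59), adipocyte in 4 of 4 (-1.22), and T cell, B cell and skeletal muscle in 2 of 2 each (-1.07, -1.34 and -0.54). For adipocyte, T cell and B cell markers, only Twist cKO 2 had a mean above all 3 Snail cKO tumours. For epithelial and duct markers, only Twist cKO 2 had a mean below all 3. Fibroblast, islet and acinar medians lay between -0.20 and 0.05. Their part in the result was not tested. Both Snail cKO comparisons use the same 3 Snail cKO tumours, so they are not separate evidence.

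Between Twist cKO and KPC tumours the members had no common direction, and the balance of the enzymes turned with 1 tumour. Of the 13 enzymes, 4 had higher means in Twist cKO (median -0.13), and of the 33 members 13 had, against 43.8% of all genes (median -0.07). Without Twist cKO 2 the enzymes counted 9 of 13 and 0.24. With a common median the enzymes counted 7 of 13, and 56.3% of all genes were higher. Of the members, 0 of 33 passed limma's adjusted threshold (0% of all genes), 0 had an unadjusted p under 0.05, against 3.55% of all genes, and 0 did not overlap, against 8.08% (3.01% above and 5.07% below). Epithelial and duct markers were lower in 9 of 9, at a median of -0.95, and proliferation markers in 8 of 8 (-0.41) and fibroblast markers in 9 of 11 (-0.55). Acinar markers were higher in 9 of 10 (1.34), endothelial in 7 of 8 (0.51), adipocyte in 4 of 4 (1.59), and T cell and B cell in 2 of 2 each (2.18 and 2.15). In Twist cKO 1, 2 and 3 the T cell means were 4.63, 11.55 and 4.71 and the B cell means 5.46, 11.36 and 4.90. Adipocyte means were 6.09, 10.83 and 5.77 and epithelial means 11.23, 5.01 and 10.73, with Twist cKO 2 standing apart in each list. The other marker medians lay between -0.23 and 0.81. Their part in the result was not tested. Gapdh (-0.93), Arnt (-0.74), Vegfa (-0.80) and P4ha2 (-1.09) had the larger downward differences, each within 2 SE of 0. The smallest adjusted p over the members was 0.979, and it was 1.00 in the Snail cKO comparison with KPC. Both comparisons share the 3 KPC tumours.

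**Figure D4:**
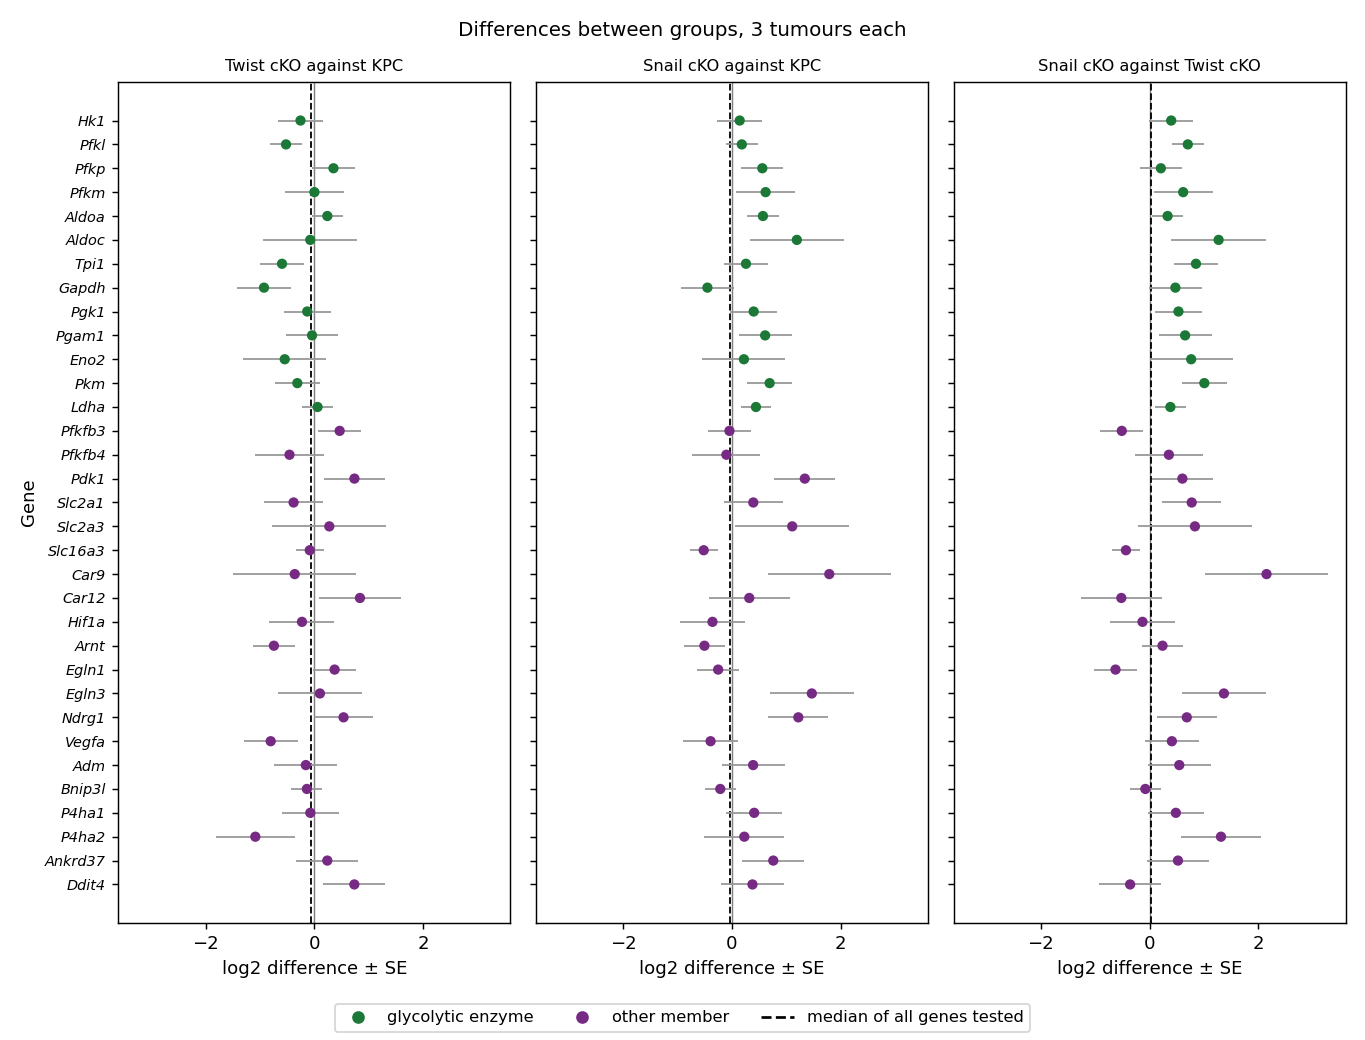
Log2 difference of 33 members (points, bars show 1 SE) in each of 3 comparisons of 3 against 3 tumours, with glycolytic enzymes and other members in different colours and the median of all genes tested as a dashed line. In the comparison of Snail cKO with Twist cKO all 13 enzymes lie to the right of 0, and in that of Snail cKO with KPC 12 of 13 do.

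At the median, the members varied more between tumours than all genes tested did. Their median range over the 9 tumours was 2.10, against 1.51 for all genes tested, and their median within-group SD was 0.698 against 0.486. The glycolytic enzymes had a median range of 1.79 and the other members 2.31, with median within-group SDs of 0.525 and 0.770. Some members varied less than the median gene, such as Bnip3l (0.87) and Ldha (0.99). After Car9, the widest were Slc2a3 (4.19), Egln3 (3.73), P4ha2 (3.70) and Aldoc (3.51). Other kept probes existed for 17 of the 33, and at least 1 had the opposite sign for 7 genes in the Twist cKO comparison with KPC, for 2 (Pfkl and Arnt) in that of Snail cKO with KPC and for 3 (Pfkl, Tpi1 and Arnt) between the cKO groups.

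Neighbouring pathways were read from further lists, in which 0 genes passed limma's adjusted threshold in any of the 3 comparisons. Over the 6 lists and their 76 genes tested, an unadjusted p under 0.05 was found for 1 gene (Idh3a) in Twist cKO against KPC, for 4 in Snail cKO against KPC (Fam162a, Fbp1, Sdhc and Ogdh) and for 4 between the cKO groups (Ak4, Fam162a, Ogdh and Mif, the last named after its value was seen), or 1.32%, 5.26% and 5.26%, beside 3.55%, 2.7% and 3.8% of all genes. Of 27 further hypoxia targets tested, 16 had a higher mean in Snail cKO than in KPC (median 0.02) and 19 than in Twist cKO (median 0.32), while 10 were higher in Twist cKO than in KPC. Fam162a, a hypoxia-induced mitochondrial gene, read 10.07, 10.36 and 10.08 in KPC, 10.40, 10.04 and 10.26 in Twist cKO and 11.68, 11.45 and 10.83 in Snail cKO, above the other 6 tumours in each. Its difference from KPC was 1.15 (SE 0.28, unadjusted limma p 0.00321, adjusted p 1.00), 0.66 within array set 1, and 1.09 from Twist cKO, 0.58 within array set 1. Ak4, a mitochondrial adenylate kinase, was 1.28 higher in Snail cKO than in KPC (SE 0.56) and 1.62 higher than in Twist cKO (SE 0.56), the latter 1.08 without Twist cKO 2. In the Twist cKO comparison with KPC the leading genes of this list were Tmem45a at -1.29 (SE 0.85) and Rora at 0.77 (SE 0.51), which were -0.35 without Twist cKO 2 and 0.29 without Twist cKO 1.

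Of the enzymes of pyruvate oxidation and the citric acid cycle, 13 of 17 had higher means in Snail cKO than in KPC (median 0.20). Against Twist cKO 13 of 17 were higher as well (median 0.11). Over all genes 46.1% (median -0.03) and 52.2% (median 0.02) were higher. How far this list depends on single tumours or the array set was not tested. Their leading genes were Ogdh, a subunit of the oxoglutarate dehydrogenase, at 0.70 and 1.01 (SE 0.30 each) and Sdhc, a subunit of succinate dehydrogenase, at 0.65 and 0.55 (SE 0.25 each). Between Twist cKO and KPC 8 of 17 were higher, with Idh3a at -0.77 (SE 0.30) and Idh3g at 0.42 (SE 0.28) leading, both subunits of isocitrate dehydrogenase.

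Further isozymes and regulators of glycolysis did not share the direction of the 13 enzymes. Of 12 such genes tested, 4 were higher in Snail cKO than in KPC and 3 than in Twist cKO, led by the pyruvate dehydrogenase kinases Pdk4 (-1.02 and -1.28, SE 0.70 each) and Pdk3 (-0.76 against KPC, SE 0.59) and by Pklr (0.49 against Twist cKO, SE 0.30). In Twist cKO against KPC 4 of 12 were higher, led by the muscle enolase Eno3 (0.94, SE 0.89) and the transporter Slc2a6 (-0.75, SE 0.99). Single tumours moved these values, with Pdk4 between the cKO groups at -0.58 and Eno3 at 0.31 without Twist cKO 2, Pdk3 at -0.13 without Snail cKO 2, Pklr at 0.27 without Snail cKO 1, and Slc2a6 at -0.079 without KPC 1 and -1.77 without Twist cKO 2. Of 5 gluconeogenesis genes, 3 were higher in Snail cKO than in KPC and 1 in Twist cKO than in KPC. Fbp1, the fructose bisphosphatase that opposes phosphofructokinase, was at -1.09 in Snail cKO and -0.81 in Twist cKO against KPC (SE 0.42 each), G6pc3 at -0.26 (SE 0.33) in Snail cKO, and the pyruvate carboxylase gene Pcx at 1.56 in Twist cKO against KPC (SE 0.74), 0.60 without Twist cKO 2. Between the cKO groups Pcx (-1.06) and G6pc (0.53) led, at -0.10 without Twist cKO 2 and 0.20 without Snail cKO 3. Without KPC 1, Fbp1 was at -0.65 and -0.37, and G6pc3 at 0.014.

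Of 5 pentose phosphate genes, 4 were higher in Twist cKO than in KPC, 2 in Snail cKO than in KPC and 1 in Snail cKO than in Twist cKO. Tkt and Taldo1, 2 enzymes of the non-oxidative branch, led with 0.45 and 0.48 in Twist cKO and 0.48 and 0.36 in Snail cKO against KPC. Between the cKO groups Rpia (-0.69) and Rpe (-0.16) led. Without Twist cKO 2, Tkt and Taldo1 were at 0.21 and 0.10 in Twist cKO against KPC, and Rpia at -0.25. In Snail cKO against KPC, Tkt was at 0.075 without Snail cKO 2 and Taldo1 at 0.12 without KPC 3, and Rpe was at -0.059 without Twist cKO 3. Of 10 regulators of HIF, 8 had a higher mean in Snail cKO than in KPC with a median of 0.03, and 6 in Twist cKO than in KPC with a median of 0.14. The leading ones were Hif3a (-1.36, SE 1.14) and the ubiquitin ligase gene Siah2 (0.36, SE 0.38) in Snail cKO against KPC, Siah1a (0.93, SE 0.62) and the chaperone gene Hspa9 (-0.43, SE 0.26) in Twist cKO against KPC, and Siah1a (-0.90) and Hspa9 (0.27) between the cKO groups. Without KPC 3, Hif3a and Siah2 were at -0.050 and 0.054. Siah1a was at 0.24 and -0.21 without Twist cKO 1, and Hspa9 at -0.27 and 0.12 without Twist cKO 2.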

How the data were processed

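Total RNA of 9 tumours was hybridised to 1-colour Illumina arrays, after Trizol extraction and biotin labelling per the labels' protocols. The submitters' processing notes name GenomeStudio 5.0. Per the file headers, the deposited table gives 45281 probes with their mean bead intensity and their detection p-value. Judging from its values the intensity was neither background-subtracted nor normalized between arrays. A second deposited table of processed intensity values was, in every column, a straight line of that array's bead intensity (slopes 0.795 to 1.16, intercepts -101 to -68.3, column medians 9.3 to 23.3), so it is linear, uncentred and runs the same way, and how the authors computed it is not stated. It served as an alternative.

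Intensities were background-corrected from the detection p-values, quantile-normalized and log2-transformed by the neqc function (limma 3.58.1, R 4.3.3, offset 16). Of the probes, 34885 had 1 symbol in the platform annotation, 18 several and 10378 none. The filter kept 20940 probes whose detection p-value was below 0.05 on 3 or more of 9 arrays, and the brightest kept probe on average stood for its gene, giving 11537 genes of 19057. The model, fitted by lmFit and eBayes, had 1 mean per group over the 9 arrays (6 residual and 2.57 prior degrees of freedom). All limma p-values are two-sided and were adjusted by Benjamini and Hochberg's method across the 11537 genes. Errors of differences are standard errors of this fit. The number of arrays limits the precision. The model fit was tested on simulated data, whereas the normalisation, the filter and the choice of probe were not. Single members also got an exact permutation test (two-sided), and a gene not detected on any array of a group gets a bound, set on each array by the lowest signal of a detected probe or by the gene's own signal if higher.

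The members and lists were chosen with earlier results of these data known, and no p-value was computed over them. Values in every tumour are given for members with an unadjusted p under 0.05, for members whose groups do not overlap at a difference of at least 1, and for 8 defining genes of the response, and further members were named after their values were seen. Of each neighbouring list, the 2 genes of smallest p in each comparison are named. Marker lists for epithelial and duct, acinar, islet, fibroblast, endothelial, smooth and skeletal muscle, adipocyte, erythroid, macrophage, neutrophil, T and B cells and for proliferation were read alongside. Promoters come from RefSeq GRCm38.p6, and the arrays' own build is not stated. Tables and figures were made with pandas 2.3.3 and matplotlib 3.10.9.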

Additional observations from a re-analysis of the deposited data

How the results depend on the processing

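With 9 arrays, a difference that passes for 1 gene must be far above the spread between tumours, and dim probes such as Slc16a3 lie at the background. The alternatives were no background correction, the deposited processed values, cyclic loess, a common median, an offset of 50, no detection filter, detection on all 9 arrays, the mean of all kept probes, the array set as a block, array set 1 only, array weights, only the 2 groups compared, leaving out KPC replicate 1 with Twist cKO replicate 2, and each tumour in turn. Array set 2 alone was added after seeing the data. No member passed limma's threshold under any of these, with a smallest adjusted p of 0.602, and up to 3, 4 and 6 members had an unadjusted p under 0.05. No paired analysis was possible because each tumour has a mouse number of its own.

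Genes past the threshold, 0 in each comparison, were 0 to 3 for Twist cKO against KPC, 0 to 1 for Snail cKO against KPC and 0 to 1 between the cKO groups when single tumours were left out (the first 3 without Twist cKO replicate 1 and 1 without KPC replicate 3, the second 1 without KPC replicate 3, the last 1 without Twist cKO replicate 1). Without single tumours, 13 to 19, 19 to 25 and 22 to 27 members and 3 to 9, 11 to 12 and 12 to 13 enzymes had a higher mean, in the same order. Enzymes with a higher mean in Twist cKO than in KPC, 4 of 13, were 7 with a common median, 8 in array set 1 and 7 with KPC replicate 1 and Twist cKO replicate 2 left out. With a common median the median of all genes was 0.063 in that comparison and 0.057 in that of Snail cKO with KPC. In array set 1 the medians between the cKO groups were 0.10 (all members), 0.14 (enzymes) and 0.03 (others), and without both tumours the enzyme median was 0.26.

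Of the log2 differences named, 37 values turned sign. For Twist cKO against KPC these were Pdk1 (-0.088), Hif1a (0.13), Tkt (-0.026) and Siah1a (-0.031) with the array set as a block, Pdk1 (-0.16), Slc2a1 (0.35), Hif1a (0.14), Taldo1 (-0.070), Siah1a (-0.13) and Rora (-0.22) in array set 1, Hif1a (0.15) and Taldo1 (-0.014) with array weights, Car9 (0.011) with the mean of probes, and Slc2a1 (0.13) and Hif1a (0.78) with KPC replicate 1 and Twist cKO replicate 2 left out. For Snail cKO against KPC they were Hif1a (0.0036), Gapdh (0.20) and Hif3a (0.00078) with the block, Gapdh (0.070) and Tkt (-0.055) in set 1, and Hif1a (0.28) and G6pc3 (0.014) without those 2 tumours. Between the cKO groups they were Slc2a1 (-0.13), Vegfa (-0.40), Pcx (0.63) and Rpia (0.53) in set 1. Without single tumours, Twist cKO against KPC ran from -0.12 to 0.24 for Ldha, -1.38 to 0.73 for Car9, -0.75 to 0.22 for Slc2a1 and -0.82 to 0.41 for Hif1a, and Snail cKO against KPC from -0.95 to 0.28 for Hif1a and -0.48 to 0.014 for G6pc3. The cause of these turns was not tested.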
